A study of Mus musculus with 3 samples.

Results

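The genes described here are 10 checkpoint ligands and co-stimulatory molecules of the mouse, through which antigen-presenting cells switch T cells on or hold them back. They were picked by symbol for their known roles, and no threshold on a measured value enters that choice, although earlier results of these data were known when it was made. They comprise the PD-1 ligands Cd274 and Pdcd1lg2, the CD28 and CTLA-4 ligands Cd80 and Cd86, the ICOS ligand Icosl, the receptor Cd40, the inhibitory receptor Havcr2 (TIM-3) with its ligand Lgals9 (galectin-9), and the B7 relatives Vsir (VISTA) and Cd276 (B7-H3). All 10 were found among 55536 annotated genes, of which 22028 are protein-coding. The RNA was polyadenylated RNA, 1 µg per library, of primary macrophages grown from C57BL/6J bone marrow. The cells had received 100 ng/ml lipid A for 12 h, were washed and left for 12 h, and then received 100 ng/ml lipid A again for 480 min. Lipid A is the part of lipopolysaccharide sensed by Toll-like receptor 4. The treatment fields call the agent lipoprotein A, and the name in the written description is used here. The 3 libraries, biological replicates 1, 2 and 3, make up a single group, so the values below are levels, within-library ratios and spreads, and no response to the treatment is given. All 3 refer to the same donor record. Whether they stem from separate cultures or animals is not stated, so the spread may be technical.

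A T cell that meets its antigen reads a second signal from such surface molecules. CD80 and CD86 engage CD28, which activates, or CTLA-4, which inhibits. PD-L1, made from Cd274, and PD-L2, made from Pdcd1lg2, engage the inhibitory receptor PD-1. CD40 works the other way round: it sits on the presenting cell and receives CD40 ligand from the T cell, which in turn raises the presenting cell's co-stimulatory capacity. Macrophages are known to display many of these molecules after exposure to bacterial products.

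Replicates 1, 2 and 3 held 24596382, 54016971 and 43127749 expected counts. Replicate 2 stood apart, with 6.86% of its counts in mitochondrially encoded messenger RNAs, while replicates 1 and 3 had 1.06% and 1.13%. Its log2 levels correlated with those of the other libraries across protein-coding genes at r = 0.971 with each, against 0.994 between replicates 1 and 3, where genes are not independent replicates. The levels of the 10 genes are therefore given for every library. Of 10 macrophage markers, 10 reached 1 TPM (a level corrected for transcript length and library size) in every library, with a summed level of 18952 to 22096 TPM. Markers of other cells were low. For conventional dendritic cells 2 of 10 reached 1 TPM in every library, with sums of 19.1 to 32.6 TPM and Cd209a at 0 counts. For B cells it was 1 of 7, with sums of 1.61 to 3.27 TPM and Cd79a at 0 counts, and for natural killer cells 0 of 5, with sums of at most 0.230 TPM. For T cells it was 1 of 8, with sums of 20.4, 114 and 33.9 TPM in replicates 1, 2 and 3 that were nearly all Cd4 (20.0, 113 and 33.6 TPM), while the other 7 stayed at or under 0.590 TPM. For neutrophils it was 2 of 7, with sums of 3.19, 21.65 and 5.24 TPM and Ly6g at 0 counts. The part of these other cells in the values below was not tested.

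The 10 molecules ranged from among the most abundant messengers of these cells to under 1 TPM. Lgals9 (853 ± 106 TPM, mean ± SD over n = 3 libraries, as in all such values below) and Cd274 (790 ± 232 TPM) lay above 99.4% of protein-coding genes each, and Cd40 (333 ± 86.7 TPM) above 98.1%. Vsir (128 ± 85.5 TPM), Cd86 (85.9 ± 33.1 TPM), Cd80 (12.9 ± 2.88 TPM) and Icosl (12.8 ± 7.48 TPM) followed, then Havcr2 (3.46 ± 0.898 TPM). Pdcd1lg2 (0.583 ± 0.288 TPM) and Cd276 (0.340 ± 0.174 TPM) stayed under 1 TPM in every library. In all, 8 of 10 reached 1 TPM in every library and 3 reached 100 TPM, against 42.9% and 4.04% of protein-coding genes. Their median was 49.4 TPM, against 0.297 TPM for all protein-coding genes and 16.2 TPM for the 10003 averaging 1 TPM or more. In these bulk samples, fewer cells that make a transcript and less of it per cell cannot be told apart.

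**Figure D1:**
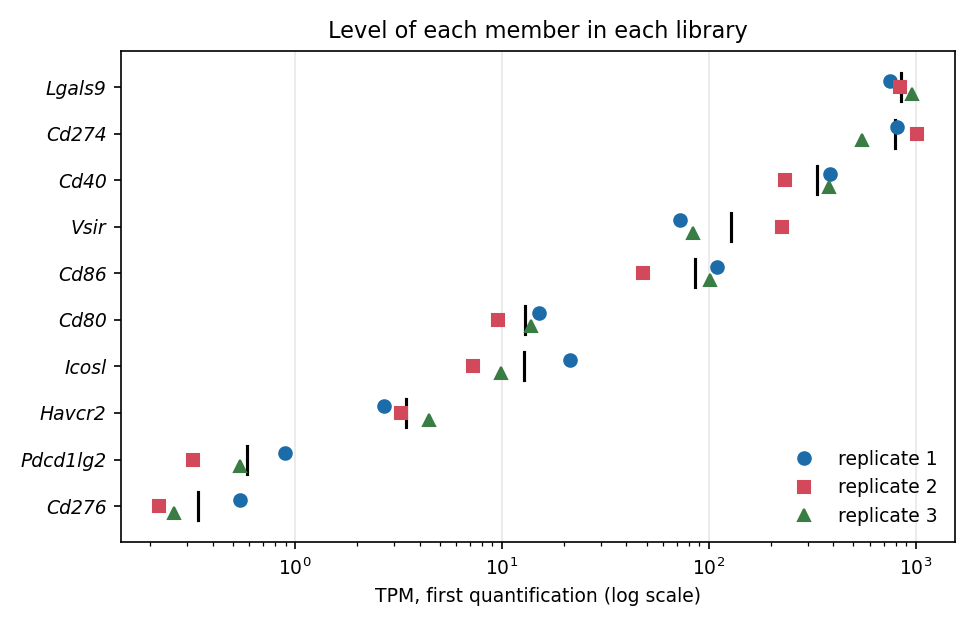
Level of each of the 10 genes (rows, highest mean on top) in TPM on a log axis, with 1 point per library and a vertical bar at the mean of the 3. Lgals9 and Cd274 lie between 549 and 1013 TPM and Pdcd1lg2 and Cd276 under 1 TPM in all 3 libraries, and the square of replicate 2 lies apart from the other points for Vsir and Cd86.

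The order of these means was firm only in part. Neighbours were compared by their log2 ratio of TPM + 0.1 within each library, where scaling cancels, and called separated when the sign was the same in all 3 libraries and the mean lay beyond 3 SD. With 3 libraries an exact sign-flip test reaches p = 0.25 at the least, so none was run. Of 9 neighbouring pairs only Cd86 over Cd80 was separated. Lgals9 over Cd274 (0.15 ± 0.58), Vsir over Cd86 (0.47 ± 1.54) and Cd80 over Icosl (0.13 ± 0.54) changed sign between libraries. The other 5 kept their sign and spread too widely, among them Cd40 over Vsir (1.54 ± 1.30) and Pdcd1lg2 over Cd276 (0.62 ± 0.22). Without replicate 2, Cd40 over Vsir (2.29 ± 0.15) and Pdcd1lg2 over Cd276 (0.73 ± 0.14) were separated as well, over 2 libraries.

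The PD-1 ligands are relatives that lie side by side. Cd274 (ENSMUSG00000016496.7) occupies chromosome 19 from 29367455 to 29388095 on the plus strand of mm10, and Pdcd1lg2 (ENSMUSG00000016498.10) follows at 29410919 to 29471161 on the same strand, 22823 bases further on. Cd274 stood at 809, 1013 and 549 TPM in replicates 1, 2 and 3. Pdcd1lg2 stood at 0.890, 0.320 and 0.540 TPM, from 21, 19 and 23 expected counts. Within each library the first gene therefore far exceeded its neighbour, by 9.67, 11.24 and 9.75 log2 units. The mean was 10.22 ± 0.88. It was 11.50 ± 0.88 in CPM (counts scaled to the library total, with no correction for length), 8.94 ± 0.58 with a pseudocount of 1 and 9.40 ± 0.77 in a second quantification of the same reads, which gave Pdcd1lg2 45, 43 and 42 counts. Cd274 has 1 annotated transcript, so no choice between transcripts enters its level. It was highest in replicate 2 and lowest in replicate 3 in TPM and in CPM (1883, 2649 and 1336 CPM). An antisense gene, AC119228.1, overlaps Cd274 and held 1065, 987 and 675 counts against 46316, 143083 and 57613 of Cd274. Another, A930007I19Rik, overlaps Pdcd1lg2 and held 68, 95 and 88 counts, more than Pdcd1lg2 itself. Whether the counting used strand is not given in the sources used here, so reads of such partners cannot be told apart, and the level of Pdcd1lg2 is uncertain to that extent.

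The 250 bases upstream of each RefSeq start are shown for these neighbours because their levels differed so widely. They are on GRCm38.p6, chr19:29367188-29367437 for Cd274 and chr19:29410669-29410918 for Pdcd1lg2, both on the plus strand and written 5′ to 3′, with matches to the searched motifs in capitals.
Cd274: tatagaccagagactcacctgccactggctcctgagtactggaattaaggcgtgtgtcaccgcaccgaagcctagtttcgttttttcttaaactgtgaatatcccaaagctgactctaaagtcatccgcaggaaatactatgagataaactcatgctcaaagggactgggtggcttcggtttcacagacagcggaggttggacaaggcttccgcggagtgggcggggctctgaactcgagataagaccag
Pdcd1lg2: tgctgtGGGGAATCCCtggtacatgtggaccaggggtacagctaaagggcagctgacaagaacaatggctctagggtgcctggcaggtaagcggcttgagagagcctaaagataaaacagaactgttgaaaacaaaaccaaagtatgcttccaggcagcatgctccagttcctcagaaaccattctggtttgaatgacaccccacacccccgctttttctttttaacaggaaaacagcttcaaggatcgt
Both strands were searched for the core of the interferon-stimulated response element (GAAA and GAAA with 2 bases between), the interferon-gamma activated site (TTCNNNGAA), the kappa B consensus and TATAAA. The window of Cd274 held none of these letters, and that of Pdcd1lg2 held 1 kappa B match, starting 244 bases before the start. Of the 8 members with a RefSeq promoter at hand, the only other match was in Lgals9, whose window held the letters TTTCTTTTTC, the response-element core on the opposite strand, 55 bases before its start (chromosome 11). No window held matches to more than 1 motif, so none overlapped. Among 32851 windows of the same length, 2.98% held the response-element core, 7.02% the gamma-activated site, 3.90% the kappa B consensus and 12.4% TATAAA. A match describes letters only and not a bound site.

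Among protein-coding genes, the 3 whose log2(TPM + 1) values lay nearest to those of Cd274 over the 3 libraries were Themis2 at a Euclidean distance of 0.357, the lysosomal protease Ctsc at 0.381 and the surface receptor Slamf7 at 0.406. Themis2 stood at 720, 814 and 552 TPM, highest in replicate 2 and lowest in replicate 3. It was picked for nearness over these same values, so that order is no further observation. With 3 libraries of 1 group the nearness is a likeness of level and spread and nothing more.

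Genes with known roles in inducing Cd274 or in keeping its protein at the surface were all detected. All 17 reached 1 TPM in every library and 4 reached 100 TPM in every library, with a median of 86.3 TPM against 16.2 TPM for the protein-coding genes averaging 1 TPM or more. The interferon-responsive transcription factor Stat2 averaged 437 ± 93.4 TPM, the regulator Irf1 203 ± 48.4 TPM and the type I interferon receptor chain Ifnar2 186 ± 37.8 TPM. At the other end stood the hypoxia factor Hif1a (33.6 ± 5.92 TPM) and Cmtm4 (2.45 ± 0.989 TPM), a membrane protein that can stabilise PD-L1. Stat2 was lowest in replicate 2 (498, 329 and 483 TPM), where Cd274 was highest. That library was lowest for 58.5% of the 10003 protein-coding genes averaging 1 TPM or more.

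The ligands of CD28 and CTLA-4 differed in the same direction in every library. Cd86 (ENSMUSG00000022901.13, chromosome 16, 36603869 to 36666081, minus strand) stood at 109, 48.0 and 101 TPM in replicates 1, 2 and 3. Cd80 (ENSMUSG00000075122.5, chromosome 16, 38455561 to 38496335, plus strand) stood at 15.1, 9.60 and 13.9 TPM. Both were lowest in replicate 2, and no Cd80 value came near a Cd86 value. Cd86 exceeded Cd80 by 2.84, 2.31 and 2.85 log2 units, a mean of 2.67 ± 0.31 that was separated under every setting tried and ranged from 2.31 in the second quantification to 2.95 in CPM. Nearly all of Cd86 was the protein-coding Cd86-201, with 96.0 ± 0.613% of the gene's TPM.

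Cd80 was split among 3 protein-coding transcripts, and the split differed in replicate 2. Cd80-201, whose last exon runs on past a splice site used by Cd80-202, held 26.6% of the gene's TPM in replicate 2, against 70.4% and 75.0% in replicates 1 and 3. Cd80-202, with an additional first exon, a distant last exon and the same coding length of 918 bases, held 54.5% in replicate 2, against 26.4% and 17.4% in replicates 1 and 3. Cd80-203 lacks a 282-base coding exon (chromosome 16, 38479064 to 38479345) and held 18.9% in replicate 2, against 3.18% and 7.64%. The second quantification gave Cd80-201 29.6% in replicate 2, against 71.4% and 77.3% in replicates 1 and 3. In counts, Cd80 amounted to 463, 839 and 697 reads, or 18.8, 15.5 and 16.2 CPM, so the libraries differed less in CPM (coefficient of variation 10.4%) than in TPM (22.4%).

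Icosl (ENSMUSG00000000732.9, chromosome 10, 78069302 to 78083913, plus strand), whose product binds the co-stimulatory receptor ICOS, averaged close to Cd80 but not in each library. It stood at 21.3, 7.25 and 9.92 TPM, high in replicate 1 and lower in both others. It exceeded Cd80 by 0.50 log2 units in replicate 1 and lay at -0.40 and -0.48 in replicates 2 and 3, so the pair was not separated. Icosl-201 held 83.3, 72.4 and 94.2% of the gene's TPM. Transcripts annotated as not protein-coding held 15.9, 11.2 and 4.54%.

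Cd40 (ENSMUSG00000017652.16, chromosome 2, 165055627 to 165072948, plus strand), a receptor of the tumour necrosis factor receptor family, came next in mean level after Lgals9 and Cd274. It stood at 384, 233 and 383 TPM in replicates 1, 2 and 3. Replicates 1 and 3 lay together and replicate 2 below them. Cd40 exceeded Cd86 by 1.82, 2.28 and 1.92 log2 units, a mean of 2.01 ± 0.24 that was separated, and by 0.89 ± 0.15 in CPM, so the size of this gap depends on how length is counted.

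The Cd40 total was divided among several transcripts. Cd40-201, with the full set of 9 exons and a coding sequence of 867 bases, held 19.2, 9.02 and 18.4% of the gene's TPM in replicates 1, 2 and 3. Cd40-203 (8 exons, coding length 609 bases) held 30.6, 71.1 and 34.9%, and led in replicates 2 and 3. Cd40-202 (8 exons, 780 bases) held 31.0, 9.78 and 32.3% and led in replicate 1. Cd40-207, annotated as a target of nonsense-mediated decay, held 16.9, 5.18 and 13.2%. The coding exons that set these transcripts apart are shown, each 5′ to 3′ on the plus strand of mm10, with the whole exon in capitals. The first lies at chr2:165066503-165066564 and is missing from Cd40-203. It is 62 bases long, not a multiple of 3, so its absence shifts the reading frame. The second, at chr2:165069629-165069715, is 87 bases long and is missing from Cd40-202. It encodes the membrane-spanning segment of CD40.
Exon absent from Cd40-203: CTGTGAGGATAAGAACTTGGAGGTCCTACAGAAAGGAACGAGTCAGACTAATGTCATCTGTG
Exon absent from Cd40-202: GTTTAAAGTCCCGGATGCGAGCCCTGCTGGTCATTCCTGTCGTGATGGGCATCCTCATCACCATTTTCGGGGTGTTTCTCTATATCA
Cd40-203 is also modelled with a short last exon, for a total of 668 bases, against 2986 bases for Cd40-201. The second quantification placed 26.8, 63.9 and 38.5% of the gene in Cd40-203 and 11.7, 6.94 and 11.3% in Cd40-201. Both quantifications therefore gave Cd40-203 a larger share in replicate 2 than in replicates 1 and 3, and Cd40-201 a smaller one. How short reads are divided among such overlapping transcripts is a model estimate.

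Genes that act in signalling below CD40 were detected. All 12 of those listed reached 1 TPM in every library and 1 reached 100 TPM in every library, with a median of 26.9 TPM. That gene was Birc3, a ubiquitin ligase recruited to the receptor, at 140, 114 and 117 TPM. The adaptor Traf1 (219, 44.04 and 82.6 TPM), the non-canonical NF-kB precursor Nfkb2 (139, 52.0 and 95.2 TPM) and the deubiquitinase Tnfaip3 (118, 66.9 and 49.8 TPM) followed. Traf6 (9.02 ± 0.850 TPM) and Traf3 (8.63 ± 1.45 TPM), an adaptor that restrains the non-canonical pathway, were lowest. Birc3, Traf1 and Nfkb2 were highest in replicate 1 and lowest in replicate 2, as were Cd80, Cd86, Icosl and Cd40 in TPM. Tnfaip3 was lowest in replicate 3, and Traf6 (9.03, 9.87 and 8.17 TPM) was highest in replicate 2. Replicate 2 was lowest for 58.5% of the 10003 protein-coding genes averaging 1 TPM or more.

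Galectin-9 and its receptor TIM-3 differed widely in level. Lgals9 (ENSMUSG00000001123.15, chromosome 11, 78962974 to 78984946, minus strand), a secreted sugar-binding ligand, stood at 752, 844 and 964 TPM in replicates 1, 2 and 3. Its coefficient of variation of 12.5% was the lowest of the 10 in TPM of the first quantification. The second quantification gave Lgals9 751 ± 196 TPM. In CPM Cd80 varied less than Lgals9 (10.4% against 14.6%). Havcr2 (ENSMUSG00000020399.14, chromosome 11, 46454935 to 46481255, plus strand), the receptor, stood at 2.68, 3.25 and 4.44 TPM, from 111, 335 and 340 counts. In the first quantification both were lowest in replicate 1 and highest in replicate 3. In the second, Lgals9 was highest in replicate 2 (526, 879 and 849 TPM). Lgals9 exceeded Havcr2 by 8.08, 7.98 and 7.73 log2 units, a mean of 7.93 ± 0.18, and by 6.99 in CPM.

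Lgals9 was close to a single transcript in all libraries. Lgals9-202 (10 exons) held 95.9 ± 0.335% of the gene's TPM and Lgals9-203 (11 exons) nearly all the rest, at 4.03, 3.79 and 3.45%. They differ by a coding exon of 93 bases, a multiple of 3, in the stretch that links the galectin's sugar-binding domains. It is shown because its absence marks the major transcript, at chr11:78969714-78969806 of mm10, minus strand, 5′ to 3′, with the whole exon in capitals.
Exon absent from Lgals9-202: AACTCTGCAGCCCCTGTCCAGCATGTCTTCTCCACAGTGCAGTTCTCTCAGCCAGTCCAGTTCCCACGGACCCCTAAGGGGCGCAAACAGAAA
The coding sequence is 966 bases without it and 1059 bases with it. The second quantification gave Lgals9-202 94.3 ± 0.583%. Havcr2-201 held 92.0 ± 7.17% of Havcr2.

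**Figure D2:**
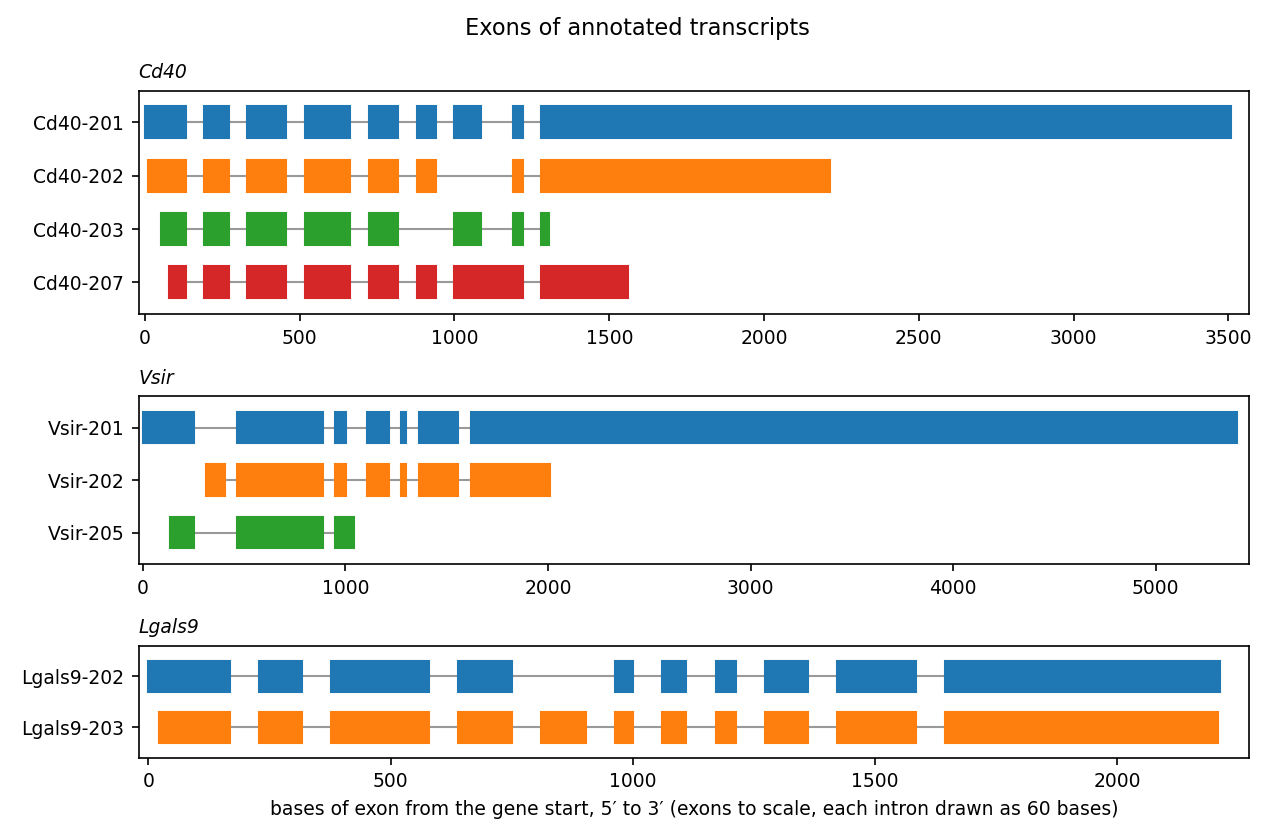
Exons (blocks, to scale in bases) of the named transcripts of Cd40, Vsir and Lgals9, from the 5′ end at the left, with each intron drawn at a fixed width of 60 bases. Cd40-202 and Cd40-203 each lack an internal exon of Cd40-201, Vsir-205 stops after 3 exons, and Lgals9-202 lacks 1 exon of Lgals9-203.

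Vsir (ENSMUSG00000020101.14, chromosome 10, 60346851 to 60372684, plus strand), an inhibitory B7 relative abundant on myeloid cells, was the member for which replicate 2 differed most between units. It stood at 72.8, 226 and 84.3 TPM in replicates 1, 2 and 3, so replicate 2 stood at 2.88 times the mean of the other libraries, which was 78.5 TPM. In CPM the same gene stood at 140, 124 and 237, with replicate 2 lowest and 0.6585 times the mean of the others. The counts behind these values were 3434, 6702 and 10230. The effective length used to turn counts into TPM was 2772, 714 and 3863 bases in replicates 1, 2 and 3, a 5.41-fold range. Of 9227 protein-coding genes with several transcripts and 1 TPM or more on average, 0.217% had a wider range, and the median range was 1.12-fold.

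This length followed from the transcript to which the reads were assigned. Vsir-205, a 641-base transcript annotated as retaining an intron and with no coding sequence, held 86.2% of the gene's TPM in replicate 2, against 25.6% and 0.973% in replicates 1 and 3. It took 3424 expected counts there, against 122 and 9.21. Vsir-201, a 4846-base protein-coding transcript with a coding length of 927 bases, held 5.80% in replicate 2, against 54.4% and 75.5%. Vsir-202, also protein-coding, has another first exon and a coding length of 681 bases. It held 7.43% in replicate 2, more than Vsir-201, and 16.7% and 17.9% in replicates 1 and 3. The second quantification gave Vsir-205 84.2% in replicate 2, against 34.7% and 20.6% in replicates 1 and 3, so the libraries kept their order while replicate 3 differed widely between quantifications. Vsir-205 comprises 3 exons at the 5′ end of the gene. Its last exon is shown, at chr10:60358944-60359038 of mm10, plus strand, 5′ to 3′. The 51 bases in lower case are an exon also of Vsir-201, and the 44 capitals are intron in Vsir-201.
Vsir-205 last exon: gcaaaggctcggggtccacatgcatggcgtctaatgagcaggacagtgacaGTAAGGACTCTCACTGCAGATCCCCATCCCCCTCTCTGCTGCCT
Summed over protein-coding transcripts alone, an alternative chosen after seeing the data, Vsir stood at 52.3, 29.9 and 83.1 TPM, and replicate 2 at 0.4423 times the mean of the others. In TPM, Vsir lay above Cd86 in replicate 2 and below it in replicates 1 and 3, and with protein-coding transcripts alone it lay below Cd86 in all 3. In the second quantification and in CPM, Vsir lay above Cd86 in replicate 3 as well, by 0.23 and 0.57 log2 units. Vsir overlaps Cdh23 on the opposite strand, which held 8, 5 and 2 counts.

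**Figure D3:**
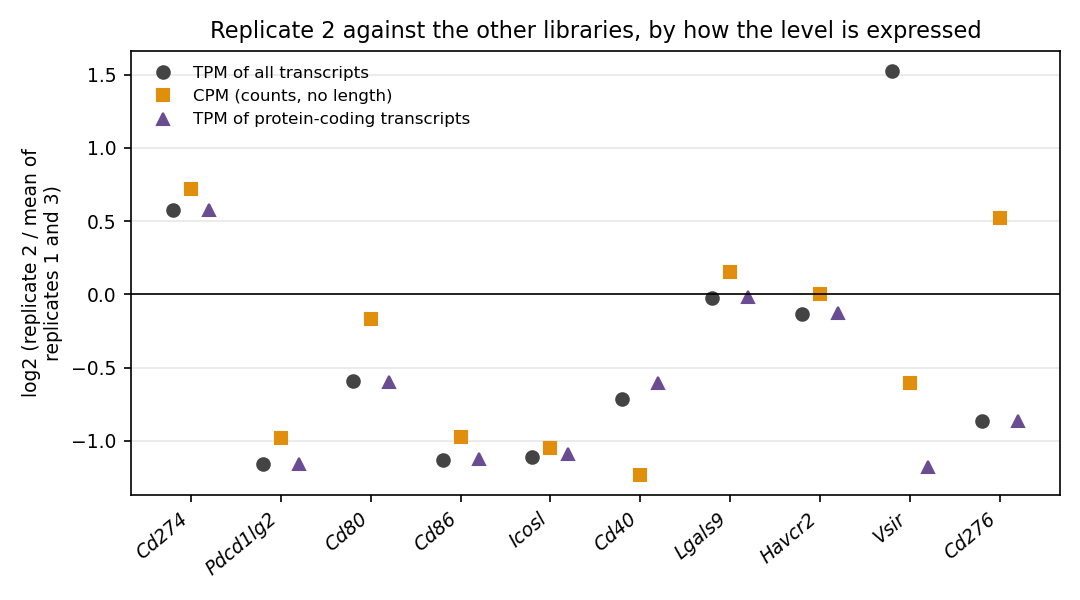
Log2 ratio of replicate 2 to the mean of replicates 1 and 3 for each of the 10 genes, in TPM of all transcripts (circles), in CPM (squares) and in TPM of protein-coding transcripts (triangles), with 0 meaning no difference. For Vsir the circle lies at 1.53 and the other symbols at -0.60 and -1.18, whereas for Cd274 all 3 lie between 0.58 and 0.72.

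A shift of the leading transcript in replicate 2 was not particular to these genes. Among the 9227 genes, 69.4% had the same leading transcript in all 3 libraries, as did 4 of the 7 members with several transcripts and 1 TPM or more on average. In 21.1% the leader in replicate 2 differed from that shared by replicates 1 and 3, as it did for Cd80 and Vsir. The corresponding share was 3.51% for replicate 1, where Cd40 belongs, and 3.21% for replicate 3. More than 50% of the TPM lay in transcripts not annotated as protein-coding for 13.0% of genes in replicate 2, against 7.25% and 7.04% in replicates 1 and 3.

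**Figure D4:**
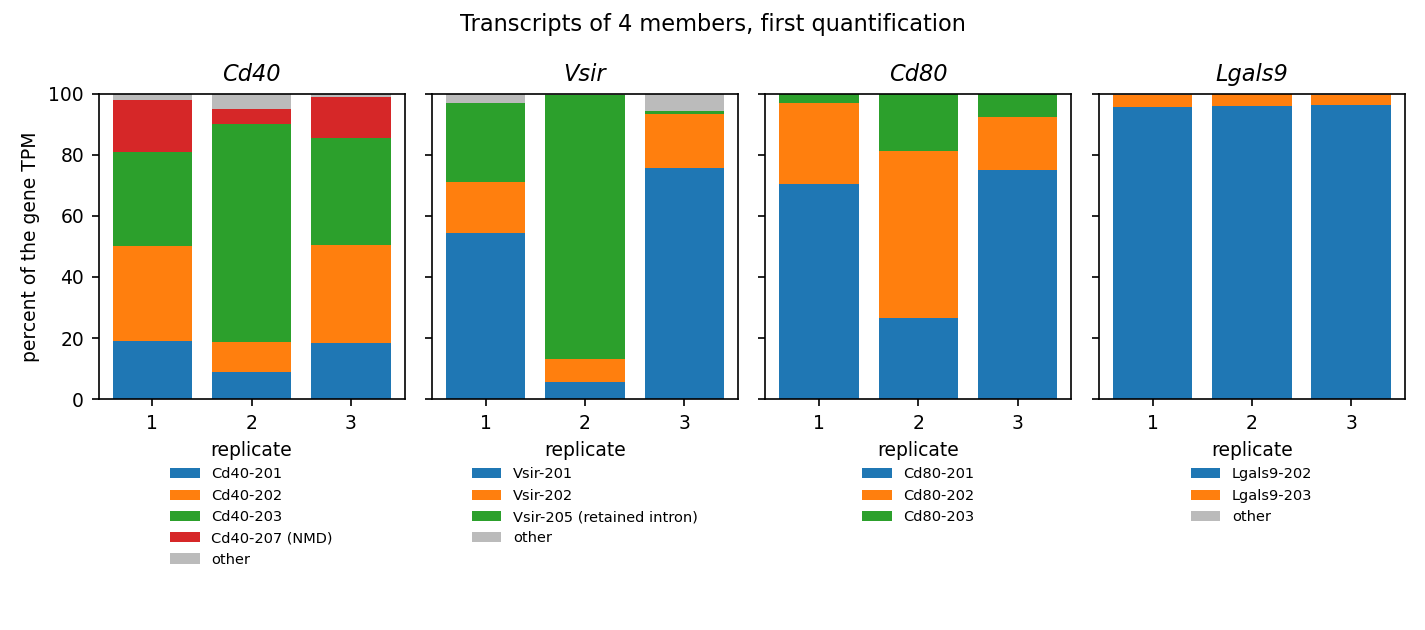
Percent of the gene's TPM held by each transcript of Cd40, Vsir, Cd80 and Lgals9 in replicates 1, 2 and 3 (stacked bars, first quantification, transcripts holding under 10% pooled as other except Lgals9-203). Vsir-205 fills 86.2% of the bar of replicate 2 and Cd40-203 fills 71.1%, whereas the bars of Lgals9 look alike.

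Cd276 (ENSMUSG00000035914.11, chromosome 9, 58524298 to 58555437, minus strand), which encodes the B7 relative B7-H3, was barely read. It stood at 0.540, 0.220 and 0.260 TPM, from 12, 27 and 9 counts. In CPM replicate 2 was no longer lowest, at 0.4998 against 0.4879 and 0.2087 in replicates 1 and 3, and in TPM it was lowest, so at this depth no order among the libraries can be read. In replicates 1 and 3 the gene's TPM was split between Cd276-201 and the 346-base fragment Cd276-204, from under 1 expected count for the fragment. Cd274 exceeded Cd276 by 10.84 ± 0.70 log2 units and Vsir exceeded it by 8.06 ± 1.33, and both pairs were separated. Their sizes depended on the setting. With a pseudocount of 1 they were 9.17 and 6.40, and in CPM Cd274 exceeded Cd276 by 11.94. Vsir over Cd276 was 7.35 without replicate 2 and 6.93 with protein-coding transcripts alone, and both pairs stayed separated in these settings.

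Of the 8 gene pairs set against each other within libraries, 7 were separated, the exception being Icosl over Cd80. Besides those given above, Cd274 exceeded Cd80 by 5.91 ± 0.72 log2 units, and by 6.801 in CPM.

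**Figure D5:**
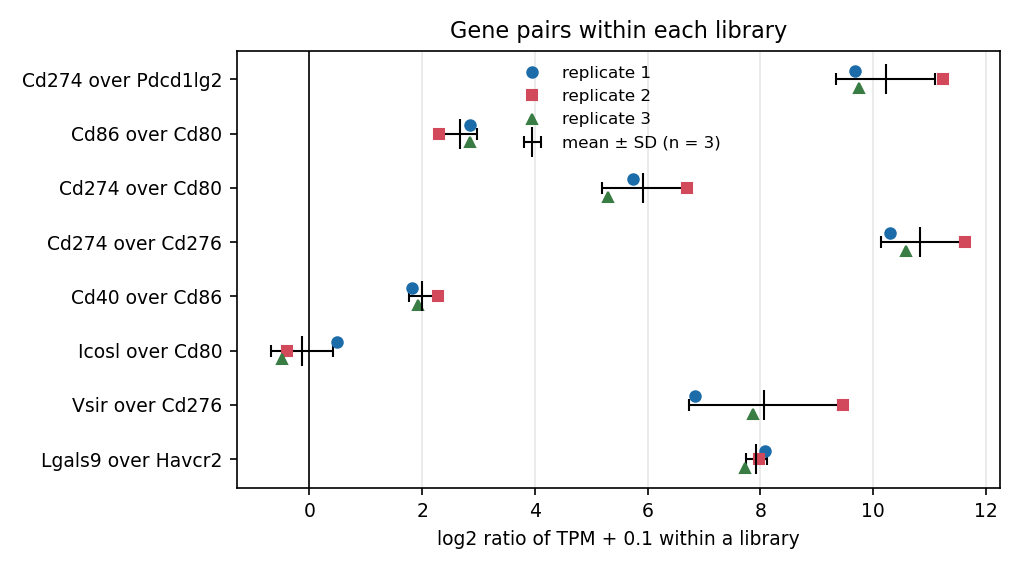
Log2 ratio of TPM + 0.1 within each library for 8 gene pairs, the first-named gene over the second, with 1 point per library and the mean ± SD (n = 3) in black. Icosl over Cd80 straddles 0, and the other pairs lie on the positive side in all 3 libraries.

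The spread between libraries was then set against that of other genes. A chi-square test of homogeneity with Benjamini-Hochberg adjustment called 9 of the 9 members with enough counts as differing between libraries beyond counting noise, Cd276 being too low to enter, and the same call was made for 87.9% of the 11932 genes tested. The members' share is therefore near the background. By edgeR's quasi-likelihood fit, 0 of 9 members and 0% of the tested genes varied more than the trend for their level at an adjusted p under 0.05, and 503 genes but no member did so at an unadjusted p under 0.05. Icosl came nearest among the members, with a variance 3.97 times the trend (unadjusted p = 0.101, adjusted p = 0.933, edgeR), a ratio exceeded by 10.04% of the tested genes. Cd80 and Lgals9 varied least, at 0.254 and 0.406 times the trend. The median coefficient of variation in TPM was 27.7% over the 8 members averaging 1 TPM or more and 28.5% over the 10003 such genes. Replicate 2 gave the lowest TPM for 6 of the 10 members, among them Pdcd1lg2 and Cd276, which averaged under 1 TPM. Among the 8 members averaging 1 TPM or more these were Cd80, Cd86, Icosl and Cd40. The share was 58.5% of the 10003 genes.

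The 2 quantifications of each library gave similar levels for the 8 members averaging 1 TPM or more, from unlike library totals. The second held 32127995, 57277114 and 47185726 estimated counts in replicates 1, 2 and 3, more than the first in each. With limma and Benjamini-Hochberg adjustment, 0 of the 8 members averaging 1 TPM or more differed by at least 1 log2 unit at an adjusted p under 0.05, against 1.66% of 10203 genes (1.26% higher and 0.392% lower in the second quantification), and no member had an unadjusted p under 0.05. The mean differences of log2(TPM + 1), second minus first quantification, lay between -0.29 for Cd274 and 0.08 for Cd80, with a median over all genes of -0.14. Single libraries differed more, as for Cd274 in replicate 1 (529 TPM in the second quantification, 809 TPM in the first). Without replicate 2, the unadjusted p was under 0.05 for Cd274 (0.039) and Cd86 (0.047), at an adjusted p of 0.370 each (limma).

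Co-stimulatory and inhibitory receptors of T cells, among them those that bind several of these molecules, were mostly low in these libraries. Of 12 listed, 2 reached 1 TPM in every library and 10 stayed under 1 TPM. Cd28, the receptor of CD80 and CD86, stood at 8.58, 10.4 and 15.6 TPM and the inhibitory receptor Lag3 at 8.73, 2.01 and 5.21 TPM. The co-stimulatory receptors Tnfrsf4 (OX40) and Tnfrsf9 (4-1BB) averaged 0.423 ± 0.297 and 0.293 ± 0.157 TPM. Ctla4, Cd40lg and Tigit had 0 counts in each library, which with a limit of 3 counts allows at most 0.214, 0.178 and 0.267 TPM in replicate 1, for counting error only. Icos, the receptor of the Icosl product, named outside the rule after its values were seen, stood at 0.19 to 0.21 TPM. Pdcd1, the receptor of Cd274 and Pdcd1lg2, had 1 count in replicate 3 and 0 in the others. Of the 8 T cell markers, Cd4 was highest in replicate 2 and the other 7 stayed low, as given above, and their part in the levels of Cd28 and Lag3 was not tested.

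Partners that these molecules can meet on myeloid and other cells were present. Of 10, 9 reached 1 TPM in every library, with a median of 64.0 TPM. The adhesion molecule Selplg (PSGL-1), which binds VISTA, stood at 221, 167 and 205 TPM and the disulfide isomerase P4hb, a galectin-9 partner, at 163, 162 and 170 TPM. The integrin chain Itgam (119, 165 and 117 TPM) and the hyaluronan receptor Cd44 (67.4, 174 and 69.3 TPM) followed. Rgmb, which binds PD-L2, averaged 5.14 ± 0.907 TPM, and the VISTA ligand Igsf11 0.0467 ± 0.0404 TPM. Cd44 and Itgam were highest in replicate 2, as Cd274 was, and Selplg was lowest there. Of the 10003 protein-coding genes averaging 1 TPM or more, 27.3% were highest and 58.5% lowest in that library.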

How the data were processed

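The labels' protocols name polyadenylated RNA-seq on mm10; sequencer, read length, strandedness, aligner and tool versions were not given in the sources used here. Per the notes deposited with the files, a first quantification was made from transcriptome alignments and a second from the reads, both with GENCODE M21. Per the file headers, the authors deposited expected counts (the first) and estimated counts (the second), which need not be whole, TPM for genes and transcripts, and each transcript's percent of its gene. Here, the second quantification was summed to genes. The 26345 entries naming no M21 gene (0.0464 to 0.0875% of counts) were left out of the tests and their library sizes. They remained in the totals used for CPM.

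Counts were rounded. Genes kept by filterByExpr were scaled by TMM (edgeR 4.0.16; factors 1.006, 0.884 and 1.124) and tested by chi-square and by edgeR's quasi-likelihood residual variance against its trend, one-sided. Quantifications were compared by limma 3.58.1 on log2(TPM + 1). All p-values were adjusted over all genes tested, at a threshold of 0.05, after tests on simulated data. CPM are expected counts scaled to the library's total. Ratios used TPM + 0.1. Promoters came from RefSeq on GRCm38.p6 and exons from GENCODE M21. Alternatives were DESeq2 1.42.0 size factors, other filters, pseudocounts, units and scalings, and leaving out each library.

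Members and lists were chosen with earlier results of these data known. The text names all members, the 4 highest and 2 lowest genes of each other list (all at 0 counts where these tie), and transcripts holding at least 10% of a gene; others, such as Lgals9-203, were chosen after their values were seen. Some genes that this rule names are not reported here.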

Additional observations from a re-analysis of the deposited data

How the results depend on the processing

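The 7 separated gene pairs stayed separated under every alternative that kept 3 libraries (pseudocount 1, second quantification, CPM, scaling over nuclear protein-coding genes, and protein-coding transcripts only, the last chosen after seeing the data). The count of separated neighbours was 1, and 2 with pseudocount 1, in the second quantification, in CPM and with protein-coding transcripts only, and 2 to 4 on leaving out a library. Cd86 over Cd80 was separated in each of these. Lgals9 over Cd274 was separated in none, but in CPM Cd274 was the higher in all 3 libraries (-1.26 ± 0.56). Havcr2 over Pdcd1lg2 was separated with pseudocount 1, in CPM and without replicate 1, and Cd40 over Vsir with protein-coding transcripts only and without replicate 2. Pdcd1lg2 over Cd276 was separated in the second quantification (1.42 ± 0.21, 3 libraries) and without replicate 2 or 3. In CPM that pair changed sign between libraries (0.44 ± 0.76). Icosl over Cd80 was separated only without replicate 1, at -0.44, with Icosl lower. Members beyond counting noise numbered 9 of 9, among 10491 of 11932 genes. With DESeq2 size factors they were 9 of 9 (all genes, 10494 of 11932), and with no filter 9 of 10 (12232 of 20372). The second quantification gave 8 of 9 (11431 of 13241). Without replicate 1, 2 or 3 they were 7 of 10 (9696 of 12205), 8 of 9 (6695 of 12181) and 7 of 10 (9121 of 11944). The share of all genes was lowest without replicate 2. Members with excess variance or differing quantifications stayed at 0 throughout; excess variance was called for 64 of all genes with no filter and for 7 to 20 on leaving out a library, and the count of differing genes was 0 with no filter and 258 with pseudocount 0.1, against 169. The mean of Lgals9 was 1018 TPM over nuclear protein-coding genes. The causes were not tested. No paired analysis was possible because there is 1 group. Depth limits Pdcd1lg2 and Cd276, with 9 to 27 counts per library.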

Other observations

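Other ligands that act on T cells or neighbouring cells, a list of 22, were measured in the same libraries. Of these, 12 reached 1 TPM in every library and 5 reached 100 TPM in every library, with a median of 7.85 TPM. The galectins Lgals3 (1372, 515 and 1543 TPM in replicates 1, 2 and 3) and Lgals1 (703, 564 and 1008 TPM), the "do not eat me" signal Cd47 (587, 376 and 583 TPM) and the adhesion ligand Icam1 (465, 229 and 279 TPM) led. Each was lowest in replicate 2, as were 58.5% of the 10003 protein-coding genes averaging 1 TPM or more. Vtcn1 (B7-H4), Btn1a1, Btn2a2, Fgl1 and Ildr2 had 0 counts in each library, which for Vtcn1 allows at most 0.0746 TPM in replicate 1.

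Relatives and adaptors of TIM-3 were measured as a list of 7, of which 3 reached 1 TPM in every library. The TIM-3 adaptor Bag6 stood at 66.2, 38.1 and 72.5 TPM, Fyn at 5.45 ± 1.09 TPM and the T cell kinase Lck at 0.350 ± 0.0458 TPM (n = 3). Timd2 had 0 counts in each library, and Havcr1 reached 0.0700 TPM in replicate 2 and 0 TPM in the others.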
